A study of Mus musculus with 6 samples.

Results

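The zinc-finger cluster on distal chromosome 4 comprised 10 of the 55426 genes in the expression table. They were Zfp990, Gm13212, Znf41-ps, Zfp986, Zfp987, Zfp992, Zfp981, Zfp989, Zfp988 and Zfp982, in chromosomal order, and each was taken as the row that carries its symbol. The cluster was picked because genes in it differed between knockout and control mice in these same libraries, so the members' own values are a description and were not used as evidence of a difference. RNA-seq was performed on abdominal aortas from male mice, 3 of them Prdm16 SMKO and 3 control, with 1 library per mouse. Prdm16 SMKO mice carried 2 floxed Prdm16 alleles (fl/fl) together with Myh11-CreERT2, a tamoxifen-inducible Cre recombinase expressed in smooth muscle from a transgene on the Y chromosome. Control mice carried Myh11-CreERT2 with wild-type Prdm16, and the strain of both groups was given as C57BL/6J, to which the floxed and Cre lines had been backcrossed. Tamoxifen was given at 75 mg/kg/day for 5 days, from an age of 8 to 10 weeks, and the time listed after tamoxifen was 2 weeks in both groups. The paper states this dosing for male mice in general and does not name the controls there. Because the floxed gene sits on the same chromosome arm as the cluster and only the knockout mice carried it, loss of Prdm16 and the stretch of chromosome 4 inherited with the floxed allele cannot be told apart in this design.

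Proteins of this type read DNA through tandem C2H2 zinc fingers, in which a pair of cysteines and a pair of histidines hold a zinc ion. Many carry a KRAB domain that recruits the corepressor TRIM28, which brings in the histone methyltransferase SETDB1 and heterochromatin proteins. They are best known for silencing transposable elements, and their genes arise by tandem duplication, so that neighbours in a cluster are close copies of each other. PRDM16 is itself a zinc-finger transcriptional regulator, known for its role in brown fat and expressed in vascular smooth muscle cells.

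All positions are on GRCm38 with GENCODE M21 gene models. The 10 members lay on the plus strand between chr4:145510759 (start of Zfp990) and chr4:147513486 (end of Zfp982), and 9 were annotated as protein-coding genes. Znf41-ps, at chr4:145825237-145829942, was annotated as an unprocessed pseudogene, that is, a duplicated copy that kept its exons. Prdm16 lay on the minus strand at chr4:154316125-154636873, and the gap between it and the members ran from 6.80 Mb for Zfp982 to 8.78 Mb for Zfp990. The repeats that define the family are shown for the 5 members with the highest levels. Each run is the coding DNA of a finger and the linker after it, the first finger in the coding sequence (in Znf41-ps, in the reading frame with most fingers) that is followed by this linker, with the codons of the metal-binding cysteines and histidines in capitals. They were read from the GENCODE M21 transcripts and lie at chr4:147512749-147512832, chr4:145622796-145622879, chr4:145537325-145537408, chr4:145828253-145828336 and chr4:146466547-146466630, all on the plus strand.
Zfp982: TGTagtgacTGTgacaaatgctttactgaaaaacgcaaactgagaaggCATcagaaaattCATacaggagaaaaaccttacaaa
Gm13212: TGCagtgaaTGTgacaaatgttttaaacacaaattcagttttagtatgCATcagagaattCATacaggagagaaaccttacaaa
Zfp990: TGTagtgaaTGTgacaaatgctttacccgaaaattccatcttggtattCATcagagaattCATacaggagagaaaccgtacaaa
Znf41-ps: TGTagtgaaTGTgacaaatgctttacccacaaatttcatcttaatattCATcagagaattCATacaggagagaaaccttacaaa
Zfp992: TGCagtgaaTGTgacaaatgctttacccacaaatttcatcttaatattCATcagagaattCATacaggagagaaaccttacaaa

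Over these 84 bases the other 4 genes matched Zfp982 at 67 or 68 positions. The number of such fingers in the annotated coding sequence was 5 in Zfp986, 7 in Zfp982 and Zfp981, 11 in Zfp992, 13 in Zfp990, 14 in Zfp987 and Zfp988, 15 in Zfp989 and 20 in Gm13212. In Znf41-ps, which has no annotated coding sequence, the best reading frame of the transcript held 11. Coding sequences of the 9 coding members were identical at 42.9% to 95.1% of aligned positions (median 66.6% over 36 pairs), with Zfp987 and Zfp988 the closest pair. Zfp990 was 89.1% identical to both Zfp987 and Zfp988.

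Promoters were compared because the members with a RefSeq start site included genes with clear expression and genes near 0. RefSeq held a promoter entry for 5 members, and the 250 bases before the start site are shown for the 4 whose start lay within 70 bases of the GENCODE start. They lie at chr4:147492167-147492416, chr4:145584950-145585199, chr4:146097062-146097311 and chr4:147305354-147305603, plus strand, and come from RefSeq on GRCm38.p6. Capitals mark the longest run of bases that all 5 promoters have in common.
Zfp982: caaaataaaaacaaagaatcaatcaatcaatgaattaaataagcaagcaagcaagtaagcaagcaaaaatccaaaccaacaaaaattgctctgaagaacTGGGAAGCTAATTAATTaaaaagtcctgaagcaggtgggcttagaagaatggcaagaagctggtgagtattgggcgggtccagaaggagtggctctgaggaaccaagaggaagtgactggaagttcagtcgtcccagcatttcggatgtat
Gm13212: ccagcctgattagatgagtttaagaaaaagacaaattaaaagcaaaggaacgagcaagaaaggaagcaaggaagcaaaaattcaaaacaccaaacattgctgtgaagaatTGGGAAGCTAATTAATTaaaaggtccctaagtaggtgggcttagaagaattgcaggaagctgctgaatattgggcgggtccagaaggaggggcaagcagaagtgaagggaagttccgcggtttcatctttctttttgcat
Zfp987: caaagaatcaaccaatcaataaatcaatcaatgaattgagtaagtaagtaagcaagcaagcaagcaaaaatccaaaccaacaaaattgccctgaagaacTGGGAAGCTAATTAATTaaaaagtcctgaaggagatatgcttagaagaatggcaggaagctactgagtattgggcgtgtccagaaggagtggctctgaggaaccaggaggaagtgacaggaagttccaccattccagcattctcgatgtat
Zfp988: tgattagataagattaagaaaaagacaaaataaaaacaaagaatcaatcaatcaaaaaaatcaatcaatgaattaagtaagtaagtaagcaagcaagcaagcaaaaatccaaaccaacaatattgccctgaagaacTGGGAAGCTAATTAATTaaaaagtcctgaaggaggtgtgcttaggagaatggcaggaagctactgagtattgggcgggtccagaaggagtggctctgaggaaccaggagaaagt

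The shared run TGGGAAGCTAATTAATT is 17 bases long and, searched on both strands, occurred in 9 of 32851 RefSeq promoters of this length (0.0274%). Those 9 included the 5 members, from which the run was derived, and Zfp984, a zinc-finger gene of the same interval that is not a member. The CCAAT box, searched as CCAAT on both strands, was present in 5 of 5 members and in 33.8% of all promoters. The 5 member promoters were identical at 59.1% to 87.4% of aligned positions (median 70.9% over 10 pairs). Zfp981 was the fifth, and its RefSeq start lay 12893 bases inside the GENCODE gene.

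Expression was given as TPM (transcript abundance scaled to a fixed total per library), which is corrected for transcript length, so levels may be set side by side between genes. Differences were fitted with limma on log2(TPM + 0.5) for 15775 genes, namely those averaging 0.5 TPM or more over the 6 libraries, and a gene was called at a Benjamini-Hochberg adjusted p under 0.05. The log2 fold changes below are on this scale, as knockout minus control, and are smaller than those of TPM itself for low genes. Of the members, 5 passed the minimum and 5 did not, with means of 1.34 TPM for Zfp990, the lowest inside, and 0.102 TPM for Zfp981, the highest outside. Of the 5 tested members, 4 were called, 3 lower and 1 higher in Prdm16 SMKO aortas, against 0.355% of all genes tested (0.171% lower and 0.184% higher). Nothing is read from that comparison, since the members were chosen on this contrast. Zfp982 and Gm13212 had a mean of 0.5 TPM or more in control libraries alone and Zfp990 in knockout libraries alone, so these 3 could enter the test only by differing. Without control replicate 2, Gm13212 alone was called, without control replicate 3 Gm13212 and Zfp982 were, and without an expression minimum the same 2 were. Values in bulk aorta do not tell fewer expressing cells from less RNA per cell.

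**Figure D1:**
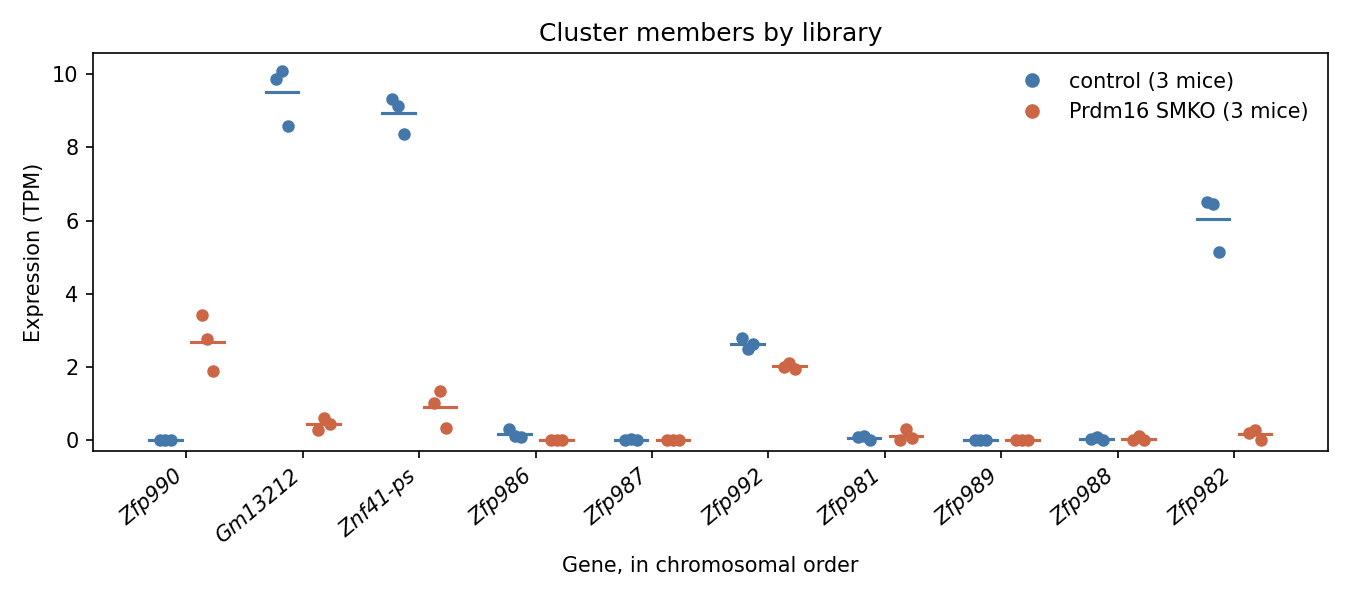
Expression in TPM (y axis) of the 10 cluster members (x axis, in chromosomal order) in each of 3 control and 3 Prdm16 SMKO libraries. Points are libraries and bars are group means. Gm13212, Znf41-ps and Zfp982 lie between 5.15 and 10.07 TPM in control libraries and at or below 1.34 TPM in knockout libraries, while Zfp990 is listed at 0 in control libraries and lies between 1.88 and 3.42 TPM in knockout libraries.

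Gm13212 encodes the member with the longest finger array and had the highest mean of the members in control aortas. It was at 9.87, 10.07 and 8.57 TPM in control libraries (9.50 ± 0.814, SD, n = 3) and at 0.29, 0.60 and 0.45 TPM in Prdm16 SMKO libraries (0.447 ± 0.155, SD, n = 3). Each knockout library was far below the lowest control library. The log2 fold change was -3.41 (SE 0.22), rank 8 in size among all genes tested.

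Zfp982, at the other end of the cluster and nearest to Prdm16, showed a similar pattern. Its levels were 6.51, 6.45 and 5.15 TPM in control libraries (6.04 ± 0.768, SD, n = 3) and 0.19, 0.29 and 0 TPM in Prdm16 SMKO libraries (0.160 ± 0.147, SD, n = 3). The groups did not overlap, and knockout replicate 3 was listed at 0. The log2 fold change was -3.33 (SE 0.28), next in rank after Gm13212.

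The pseudogene Znf41-ps was at 9.32, 9.14 and 8.35 TPM in control libraries (8.94 ± 0.516, SD, n = 3) and at 1.02, 1.34 and 0.33 TPM in Prdm16 SMKO libraries (0.897 ± 0.516, SD, n = 3). The groups were again apart, although its knockout level stayed above that of Gm13212 on average. The log2 fold change was -2.83 (SE 0.30).

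Zfp990 ran the opposite way. It was listed at 0 TPM in every control library and at 3.42, 2.76 and 1.88 TPM in the knockout libraries (2.69 ± 0.773, SD, n = 3). No fold change is given against a group listed at 0. Zfp990 ends 46.0 kb before the start of Gm13212, its nearest member on the chromosome, so the member called higher and the member with the most negative log2 fold change are neighbours in the cluster.

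Zfp992 was expressed in both groups. It was at 2.79, 2.49 and 2.62 TPM in control libraries (2.63 ± 0.150, SD, n = 3) and at 1.99, 2.11 and 1.95 TPM in Prdm16 SMKO libraries (2.02 ± 0.0833, SD, n = 3). All knockout values lay below all control values, but the difference, a log2 fold change of -0.32 (SE 0.21), was not called.

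The other 5 members were at 0.32 TPM or less in every library and were not tested. Zfp986 was at 0.30, 0.12 and 0.09 TPM in control libraries and listed at 0 in all 3 knockout libraries. Zfp981 was at 0.10, 0.13 and 0 TPM in control libraries and at 0, 0.32 and 0.06 TPM in knockout libraries. At these levels TPM rounded to 2 decimals leaves little to compare, and the groups of Zfp981 overlapped. Zfp988 was at 0.04, 0.08 and 0 TPM in control libraries, and 0.11 TPM in knockout replicate 2 was its only value above 0 in that group. Zfp987 was above 0 in control replicate 2 only (0.05 TPM), and Zfp989 was listed at 0 in all 6 libraries. These 5 genes were thus near 0 in control aortas too, including Zfp987 and Zfp988, whose promoters hold the same 17-base run as those of Zfp982 and Gm13212.

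In control aortas the order of the members was Gm13212, Znf41-ps, Zfp982 and Zfp992, with Zfp990 and the low members at or near 0. The ranges of Gm13212 (8.57 to 10.07 TPM) and Znf41-ps (8.35 to 9.32 TPM) overlapped, so this pair was not separated, while Zfp982 and Zfp992 each lay apart from the gene above. In Prdm16 SMKO aortas the order was Zfp990, Zfp992, Znf41-ps, Gm13212 and Zfp982. Zfp990 (1.88 to 3.42 TPM) overlapped Zfp992 (1.95 to 2.11 TPM), and Gm13212 overlapped Znf41-ps. Zfp982 and Gm13212 met at 0.29 TPM, the highest value of one and the lowest of the other.

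Summed over the 10 members, expression was 28.9, 28.5 and 24.8 TPM in control libraries and 6.91, 7.53 and 4.67 TPM in knockout libraries. The means were 27.4 ± 2.29 and 6.37 ± 1.5 TPM (SD, n = 3), a difference of -21.0 TPM, and no test was made on the sum. Without Zfp990 the knockout libraries summed to 3.49, 4.77 and 2.79 TPM.

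Because reads of near-identical copies can be assigned to the wrong gene, every 151-base stretch of each member's transcripts, the read length, was looked up in 141767 annotated transcripts on both strands. For Zfp982, 100% of these windows occurred in no other gene, and for Zfp990 99.5% did, counting only exact matches to the reference transcripts. Reads placed with mismatches were not tested. In coding sequence Zfp990 was 89.1% identical to Zfp987 and Zfp988, 86.1% to Zfp991, 86.0% to Zfp992 and 84.4% to Zfp984. Of these, Zfp991, Zfp992 and Zfp984 were expressed in both groups. Gm13212 was unique in 88.5% of windows and shared 11.3% with Zfp984. Znf41-ps was unique in 32.3% only, and 60.3% of its windows also occurred in Zfp991, 32.6% in Zfp992 and 23.4% in Zfp993. Its level is therefore uncertain as that of 1 gene.

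**Figure D2:**
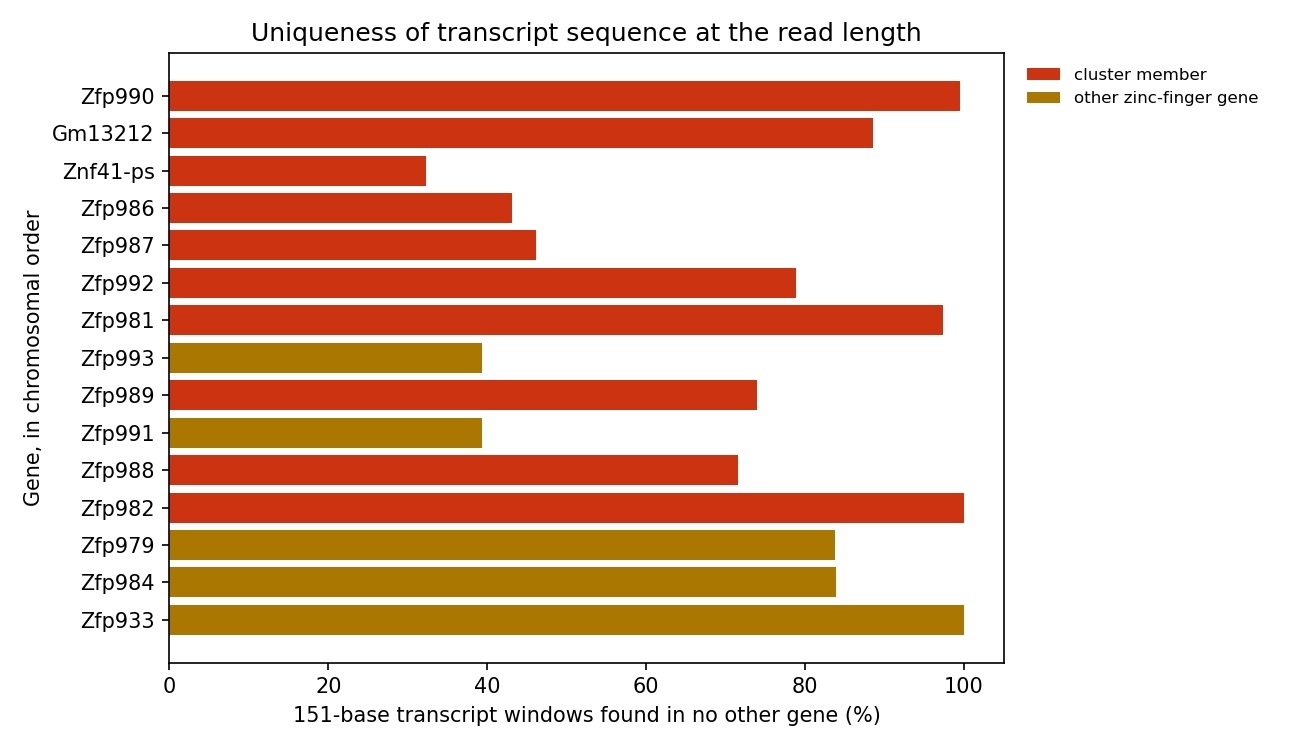
Share of 151-base transcript windows (x axis, %) that occur in no other annotated gene, for the 10 cluster members and 5 other tested zinc-finger genes of the interval (y axis, in chromosomal order). Zfp982 and Zfp990 stand at 100% and 99.5%, Gm13212 at 88.5% and Znf41-ps at 32.3%.

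Members were therefore also summed with the genes that share their windows, which lessens the effect of how reads were split but does not remove it, since TPM is divided by transcript length and these genes differ in length. Znf41-ps, Zfp991, Zfp992 and Zfp993 together were at 26.3, 36.1 and 22.6 TPM in control libraries and at 7.54, 8.14 and 5.40 TPM in knockout libraries. Gm13212 with its 2 sharing genes was at 13.2 TPM or more in every control library and at 1.62, 2.28 and 1.34 TPM in knockout libraries. Gm13166, which shares windows with Zfp991 and Zfp993 but not with the members, is not in the first sum, and with it that sum was 33.0, 39.0 and 29.9 TPM in control and 12.8, 8.14 and 9.66 TPM in knockout libraries. Each of these sums kept the groups apart, in the direction of the single genes. Because the sums contain members chosen on this contrast, this separation is a description and not independent support. Of the low members, Zfp986 (43.1% unique), Zfp987 (46.1%), Zfp988 (71.6%) and Zfp989 (74.0%) shared windows mostly with each other and with genes at 0.57 TPM or less in every library. Zfp992 was unique in 78.8% and Zfp981 in 97.4% of windows.

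The cluster lies in an interval of 3 Mb that runs from Tnfrsf1b to Nppb. In it, 5 other zinc-finger genes passed the expression minimum, and each did so in both groups. None of the 5 was called by limma, and all 5 had an unadjusted p under 0.05 (8.74% of all genes tested did). Among the 17 alternative fits, Zfp991 and Zfp993 were called in 6 each, Zfp984 in 2, Zfp979 in 1 and Zfp933 in none. The only call of Zfp979 came with sample weights estimated by limma, where 3.13% of all genes tested were called. In all 5, every knockout library was below every control library, which held in this direction for 5.76% of all genes tested and in either direction for 12.8%. These genes are paralogs on 1 stretch of chromosome, some of which share sequence with the members, and do not count as independent cases.

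Zfp993 was at 4.8, 14.60 and 4.44 TPM in control libraries and at 1.27, 0.79 and 0.56 TPM in knockout libraries, a log2 fold change of -2.45 (SE 0.43, limma adjusted p = 0.0638). Control replicate 2 was well above the other control libraries, but the groups were apart without it as well. Zfp991, whose coding sequence was 99.5% identical to that of Zfp992, was at 9.42, 9.92 and 7.20 TPM in control libraries and at 3.26, 3.90 and 2.56 TPM in knockout libraries, a log2 fold change of -1.32 (SE 0.21, limma adjusted p = 0.0505). Zfp984, which shares the 17-base promoter run, was at 4.0, 3.17 and 4.60 TPM in control libraries and at 1.04, 1.57 and 0.89 TPM in knockout libraries, a log2 fold change of -1.42 (SE 0.26, limma adjusted p = 0.0685). All 3 lay close to the threshold without passing it. Zfp991 and Zfp993 were each unique in 39.3% of windows, so their single levels are uncertain as well.

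Zfp979 was at 3.76, 3.19 and 2.38 TPM in control libraries and at 1.23, 0.80 and 1.42 TPM in knockout libraries, a log2 fold change of -1.13 (SE 0.27, limma adjusted p = 0.178). Zfp933, which had no window in common with another gene, was at 3.77, 4.48 and 3.36 TPM in control libraries and at 2.47, 2.02 and 2.29 TPM in knockout libraries, a log2 fold change of -0.66 (SE 0.21, limma adjusted p = 0.367). All 21 zinc-finger genes of the interval, members included, summed to 55.4, 64.4 and 48.0 TPM in control libraries and to 16.3, 17.3 and 12.7 TPM in knockout libraries, with no overlap between groups.

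**Figure D3:**
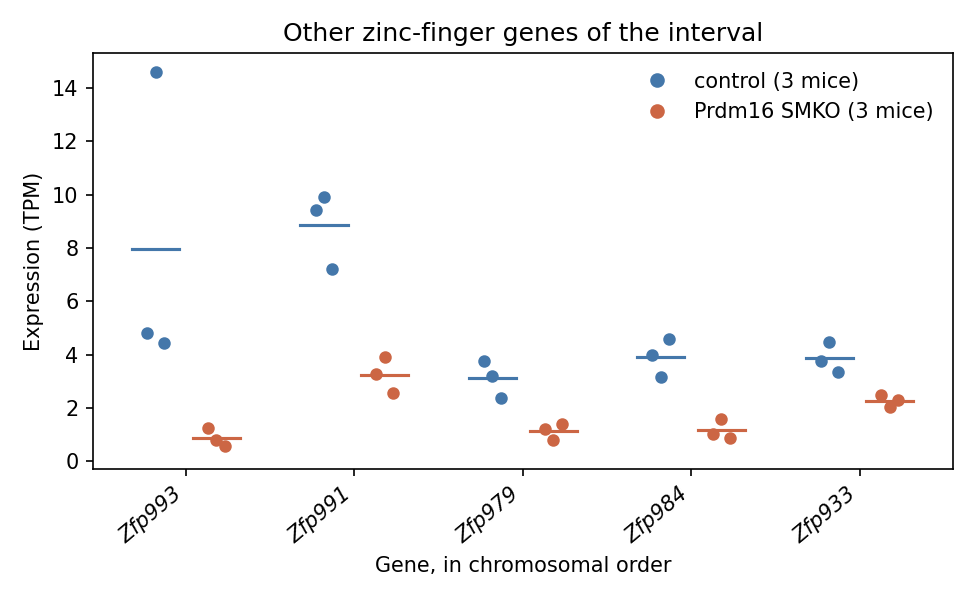
Expression in TPM (y axis) of the 5 zinc-finger genes of the interval that passed the expression minimum and are not cluster members (x axis, in chromosomal order). Points are the 3 control and 3 Prdm16 SMKO libraries and bars are group means. In each gene all knockout points lie below all control points, and Zfp993 has 1 control library at 14.60 TPM.

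The interval held 98 genes of the table, of which 24 were tested and 33 were listed at 0 in all libraries. The 4 called genes of the interval were the 4 called members. Among the 14 tested genes that are no zinc-finger genes by symbol, none was called by limma, and 6 had an unadjusted p under 0.05. Their median log2 fold change was -0.56, against 0.02 for all genes tested. Most of the 6 were processed pseudogenes, whose transcripts were not looked up for uniqueness. The 6 were not all lower, since the gene with the highest log2 fold change of the 14 (1.54) was among them. Only 10 of these 14 reached the expression minimum in both groups. The other 4 reached it in control libraries alone, so they entered through their control levels and pull this median toward lower values. They did not raise the share with an unadjusted p under 0.05, which was higher without them, as given below. The share of genes with an unadjusted p under 0.05 was 62.5% in the interval, members included. Without the members, which were chosen on this contrast, it was 57.9% (11 of 19 genes), and 66.7% (10 of 15) among those that reached the expression minimum in both groups. In the 3 windows of 3 Mb toward the centromere it was 22.2% next to the interval, then 31.6% and then 9.09%. In the 3 windows of 3 Mb toward the telomere it was 24.4%, then 19.0% and then 17.7% in the window that holds Prdm16. Calls on this arm were not confined to the cluster. In the window with 31.6%, Slc25a34, Tmem82 and Fblim1 were called lower, and in the telomeric window next to the interval Rbp7 was called higher. Over the rest of chromosome 4 the share was 7.30%, and over the other chromosomes 8.55%. The windows hold 9 to 62 tested genes each, neighbours are not independent, and the differences between windows were not tested.

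**Figure D4:**
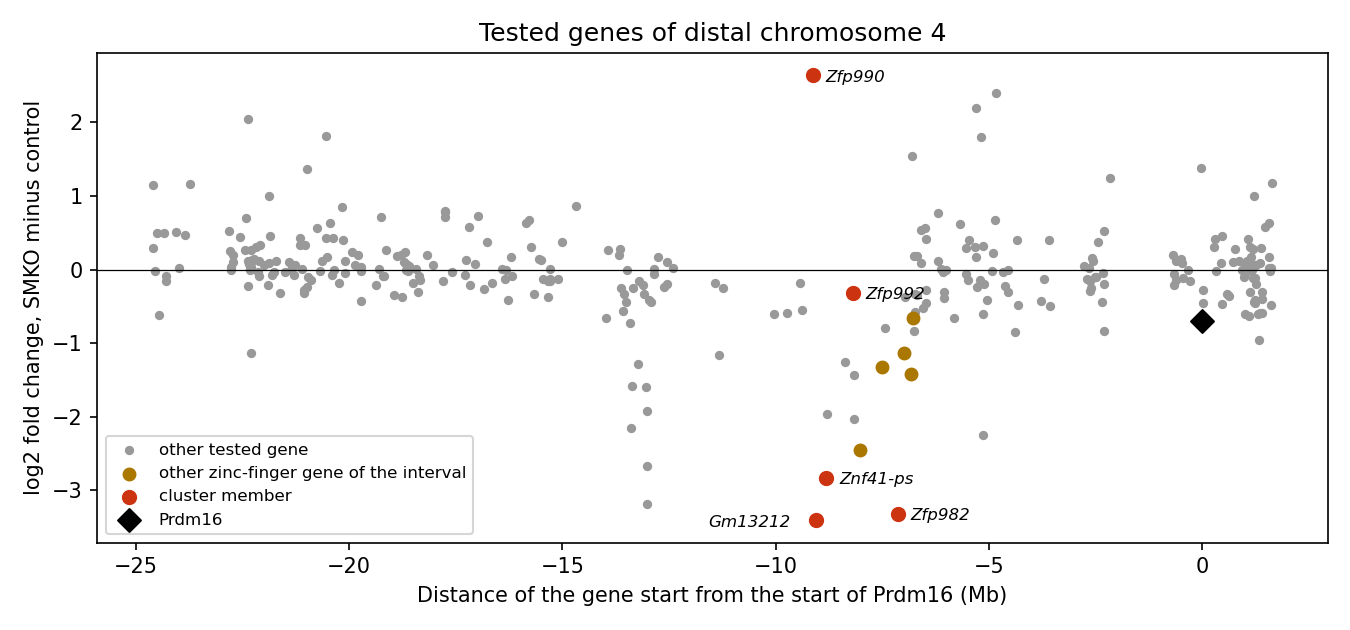
Log2 fold change, Prdm16 SMKO minus control, on the log2(TPM + 0.5) scale (y axis) of tested genes of distal chromosome 4 against the distance of the gene start from the start of Prdm16 (x axis, Mb, negative values toward the centromere). Points are genes, coloured as cluster members, other zinc-finger genes of the interval, other genes and Prdm16. Gm13212 (-3.41), Zfp982 (-3.33) and Znf41-ps (-2.83) are the lowest points within 10 Mb of Prdm16 (-0.70) and Zfp990, listed at 0 in control libraries, the highest, while Slc25a34 (-3.19), farther from Prdm16, lies between Zfp982 and Znf41-ps.

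Prdm16 itself, which checks the labels, was at 33.42, 36.83 and 30.77 TPM in control libraries and at 20.75, 27.67 and 14.77 TPM in knockout libraries. All knockout libraries were below all control libraries, with a log2 fold change of -0.70 (SE 0.23, limma adjusted p = 0.376). The exact two-sided permutation test gave p = 0.10, the smallest value that 3 against 3 libraries allow. The whole aorta also holds cells in which Cre is not expressed, and whether reads came from the deleted exons cannot be seen in a gene-level value.

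To ask whether zinc-finger genes elsewhere moved with the cluster, the 401 genes named Zfp outside the interval were examined. They were taken by symbol alone, so the set is not limited to genes with a KRAB domain and leaves out zinc-finger genes with other symbols. Of the 350 tested, none was called by limma (0.355% of all genes were), 13 (3.71%) had an unadjusted p under 0.05, and 37 (10.6%) had groups that did not overlap, below the shares of all genes tested (8.74% and 12.8%). Their median log2 fold change was -0.03 (range -0.79 to 1.40). With sample weights estimated by limma, 3 were called, namely Zfp385c, Zfp503 and Zfp568, of which Zfp568 was lower, where 3.13% of all genes tested were called. Summed over the 401 genes, expression was 2810 ± 335 TPM in control and 2710 ± 194 TPM in knockout libraries (SD, n = 3), with overlapping groups.

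**Figure D5:**
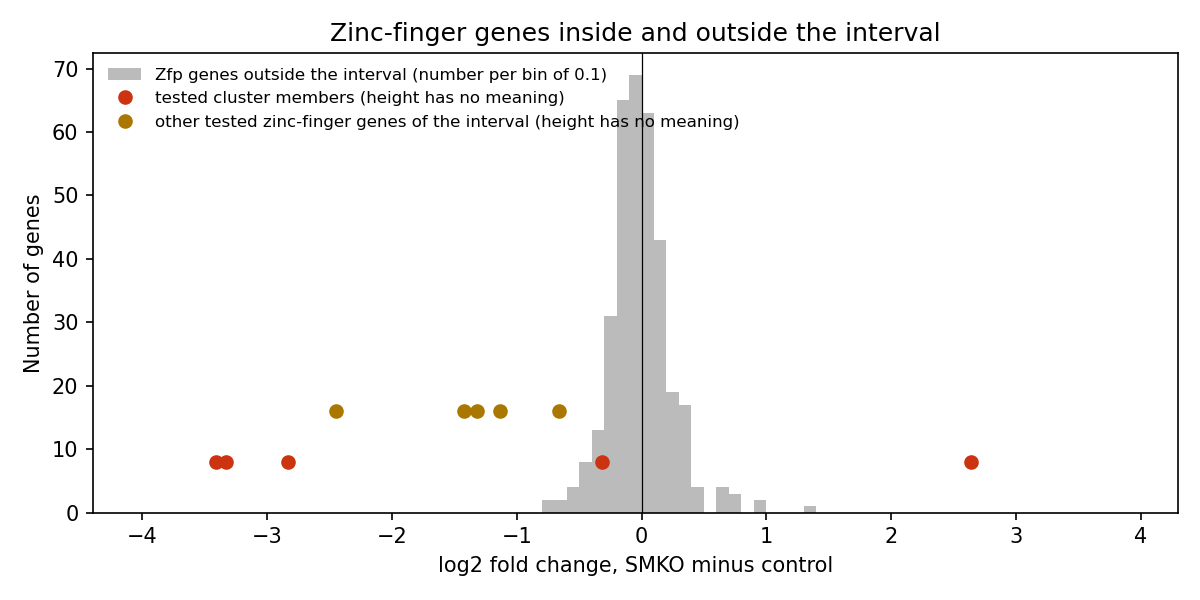
Histogram of log2 fold changes, Prdm16 SMKO minus control, on the log2(TPM + 0.5) scale (x axis) for the 350 tested Zfp genes outside the interval (y axis, number of genes per bin of 0.1), with the 5 tested cluster members and 5 other zinc-finger genes of the interval as points whose height carries no value. Genes outside the interval range from -0.79 to 1.40, and 4 of the 5 members lie beyond that range. The members were chosen on this contrast, so nothing is read from their place in the figure.

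The genes through which KRAB zinc-finger proteins silence chromatin were counted from a list of 31. Of the 30 tested, none was called by limma in the reported fit or in any of 17 alternative fits, where 0.355% of all genes were called in the reported fit, so that a list of this size would hold no call at the background share. At an unadjusted p under 0.05 there was 1 (3.33%), against 8.74% of all genes. Their median log2 fold change was -0.03 (range -0.57 to 0.16), and the gene at the lower end was Atf7ip, which encodes a cofactor of SETDB1. Trim28, which encodes the corepressor bound by KRAB domains, was at 42.3 ± 6.71 TPM in control and 38.0 ± 5.98 TPM in knockout libraries. Setdb1, which encodes the histone methyltransferase recruited by TRIM28, was at 6.87 ± 0.970 and 7.30 ± 1.06 TPM (SD, n = 3). The groups of both genes overlapped. Among the 30 tested, 2 (6.67%) had groups that did not overlap, against 12.8% of all genes tested, and both were lower in knockout libraries. Atf7ip was 1 of these 2 and was the gene with an unadjusted limma p under 0.05.

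The genes outside the cluster with profiles most like a member were found by Euclidean distance between centred log2(TPM + 0.5) values over the 6 libraries. Slc25a34, a mitochondrial carrier gene on chromosome 4, was nearest to Zfp982 (distance 0.51), Gm17241 on chromosome 15 to Gm13212 (0.61), and Npas2, a circadian clock transcription factor gene on chromosome 1, to Znf41-ps (0.44). The same 3 genes were the nearest to Zfp982 outside the cluster, with Gm17241 at 0.63 and Npas2 at 0.80. Between members, Zfp982 and Gm13212 were 0.54 apart and Zfp982 and Znf41-ps 0.72. Ankrd1, which encodes a stretch-responsive ankyrin repeat protein, was nearest to Zfp990 (0.51). Ints12, which encodes a subunit of the Integrator complex, was nearest to Zfp992 (0.08). Likeness here mostly reflects the size of the difference between groups and is a description over 6 libraries.

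The 6 libraries had values above 0 for 20332 to 22100 genes, and no pair of libraries was identical. Smooth muscle markers, the labelled tissue's main cell type, summed to 15300 to 25900 TPM in control and 12000 to 18400 TPM in knockout libraries. Among 14 lists of cell type markers, no marker was called. The T cell list was the only one whose sums did not overlap between groups, where 12.8% of all genes tested did not overlap. It stood at 0.67 to 2.91 TPM in control and 3.49 to 5.58 TPM in knockout libraries for 6 genes, 2 of which were tested and neither called. Macrophage markers summed to 61.4 to 94.9 TPM in control and 92.4 to 175 TPM in knockout libraries, with 8 of 8 higher on average, and erythroid markers to 1140 to 3170 and 2190 to 19600 TPM. All tested markers were higher on average also in the adipocyte (7), Schwann cell and neuron (7), erythroid (5), B cell (3), T cell (2) and adrenal cortex (1) lists. More markers were lower than higher in the smooth muscle (6 of 10) and brown adipocyte (3 of 4) lists. The part of these differences in the levels of the cluster was not tested.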

How the data were processed

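RNA-seq of abdominal aorta from 3 control and 3 Prdm16 SMKO mice was deposited by the authors as 1 table of TPM values, rounded to 2 decimals, for 55426 genes. Per the labels, reads were 151 bp and paired, from polyadenylated RNA, with about 40 M pairs per sample on average. The submitters' processing notes name cutadapt 2.3, STAR 2.7.8a, RSEM 1.3.3 and GRCm38, without roles. The annotation and the strand setting are not given in the sources used here. TPM holds no depth, so no counting error could be computed.

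Members were matched by symbol (10 of 10), and the members and gene lists were chosen with earlier results of these data known. Expression was fitted as log2(TPM + 0.5) with limma 3.58.1 in R 4.3.3, using a variance trend, on the 15775 genes averaging 0.5 TPM or more over the 6 libraries, without covariates, and p-values were two-sided and adjusted by the Benjamini-Hochberg method. The script was tested on simulated data. P-values set the difference between groups against the spread between these libraries, with each gene's variance drawn toward a trend over all genes tested. The 17 alternatives fitted were pseudocounts of 0.1 and 1, no minimum or 2 TPM, size factor and quantile scaling, no mitochondrial genes, no trend, robust variances, sample weights, a replicate block and each library left out, and 2 sums over paralogs were added after the data were seen.

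Named were all members, Prdm16, tested zinc-finger genes and called genes of the 3 Mb interval of chromosome 4 around the cluster, called corepressor genes, called Zfp genes elsewhere, and up to 3 genes that are no members and most like each member with a mean of at least 1 TPM. Trim28, Setdb1, Atf7ip, Fblim1, Rbp7 and the Zfp genes called with sample weights were named after their values were seen. Positions and transcripts came from GENCODE M21 (186 genes had no position) and promoters from RefSeq on GRCm38.p6. Fingers were counted as the C2H2 pattern in translated coding sequence, and identities come from global alignment in Biopython 1.88, with gaps counted as differences.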

Additional observations from a re-analysis of the deposited data

How the results depend on the processing

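No direction reversed among the results and alternatives run. The 4 called members were also called with pseudocounts of 0.1 or 1, either scaling, no mitochondrial genes, no trend, robust variances and sample weights. Without an expression minimum 2 were called (Gm13212 and Zfp982, of 9 tested), and with a minimum of 2 TPM 3 were (of 4 tested, Zfp990 being below it). With 1 library left out 1 to 4 were called, namely 1 (Gm13212) without control replicate 2, 2 (Gm13212 and Zfp982) without control replicate 3, 3 without control replicate 1 or knockout replicate 2, and 4 otherwise. Zfp990 was called in 11 of 17 fits, Znf41-ps in 14, Zfp982 in 16 and Gm13212 in 17 of 18, and Zfp992 in none. Called genes of the interval numbered 4, against 2 without a minimum, 8 with size factors, quantile scaling or robust variances, 12 with sample weights and 1 to 4 with a library left out. Over all genes, 56 were called, against 10 without a minimum, 153 with size factors, 129 with quantile scaling, 33 without a trend, 112 with robust variances, 494 with sample weights, and 5 to 61 with a library left out (17 without control replicate 1 or 3, 5 without control replicate 2, 28 without knockout replicate 2). Zfp genes outside the interval went from 0 called to 3 with sample weights. The summed difference of -21.0 TPM became -26.5 TPM without mitochondrial genes and -40.5 TPM over all zinc-finger genes of the interval, which adds genes. The causes of the other shifts were not tested. With the replicate number as a block, 0 members, 0 genes of the interval and 4 genes in all were called. The deviations of same-numbered libraries correlated at -0.13, -0.11 and 0.02, and 0 controls correlated best with their own number. The labels give no pairing, and 3 libraries per group cannot settle whether same-numbered libraries belong together. Depth per library is unknown, and values under about 0.1 TPM cannot be ranked.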
